A study of Arabidopsis thaliana with 12 samples.

Results

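In leaves of Arabidopsis thaliana taken after strong light, 69 of the 28642 genes in the deposited tables were higher in both genotypes that carry pgr5, and by a similar amount whether or not sapx and tapx were mutated as well. They span 10 groups by role, from glutaredoxin-type proteins and sugar-transferring enzymes to the phloem sucrose carrier SUC2, the light stress protein ELIP2, the cytosolic aldolase FBA5 and polyubiquitin UBQ3. The median ratio of the 69 genes was 2.07 in pgr5 over wild type and 2.36 in sapx tapx pgr5 over sapx tapx. Both ratios, and the ratio of sapx tapx pgr5 to pgr5, chose the genes, so they are given as a description and carry no test. In sapx tapx against wild type, a contrast the rule limited only indirectly, no member passed the test, where 0.0367% of all genes did. With so few calls, this does not set the members apart.

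The study compared 4 genotypes with 3 RNA sequencing libraries each: the triple mutant sapx tapx pgr5, the pgr5 mutant, the sapx tapx double mutant and wild type. All 4 groups were fully expanded rosette leaves of plants kept dim at 40 to 60 µmol photons/m2/s until day 18, harvested after 90 min in light of 1500 in that unit, so every comparison is between genotypes after the light treatment. The labels name the genotypes without alleles, and do not say whether the libraries of a genotype came from separate plants, so the spread between them may be technical. Levels are in CPM, the exon reads of a gene per 1000000 exon reads of its library.

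PGR5 is a chloroplast protein needed for the cyclic route of electrons around photosystem I that builds the proton gradient across the thylakoid membrane and slows electron flow in strong light. Plants without it fail to protect photosystem I in such light. SAPX and TAPX are the ascorbate peroxidases of the chloroplast stroma and of the thylakoid membrane, which remove hydrogen peroxide made when photosystem I passes electrons to oxygen.

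Members were chosen on group means of CPM with 0.5 added. A gene needed a pgr5 mean of at least 5 CPM, ratios of at least 1.7 in pgr5 over wild type and in the triple mutant over sapx tapx, a ratio of the triple mutant to pgr5 between 0.67 and 1.5, and its lowest value among the 6 pgr5-carrying libraries above its highest among the other 6. The level was reached by 12913 genes, of which 274 also passed the pgr5 ratio, 174 both ratios and 94 the limits on the triple mutant as well. The last condition left out 25 genes whose libraries overlapped. Among genes past both ratios, 78 were left out because the triple mutant exceeded pgr5 by more than 1.5 times, and 2 because it was below 0.67 of it. For the 78 genes above the limit the median ratio was 2.44 in pgr5 over wild type and 7.13 in the triple mutant over sapx tapx, and 12 of them were on a list of 18 heat shock genes that holds no member.

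**Figure D1:**
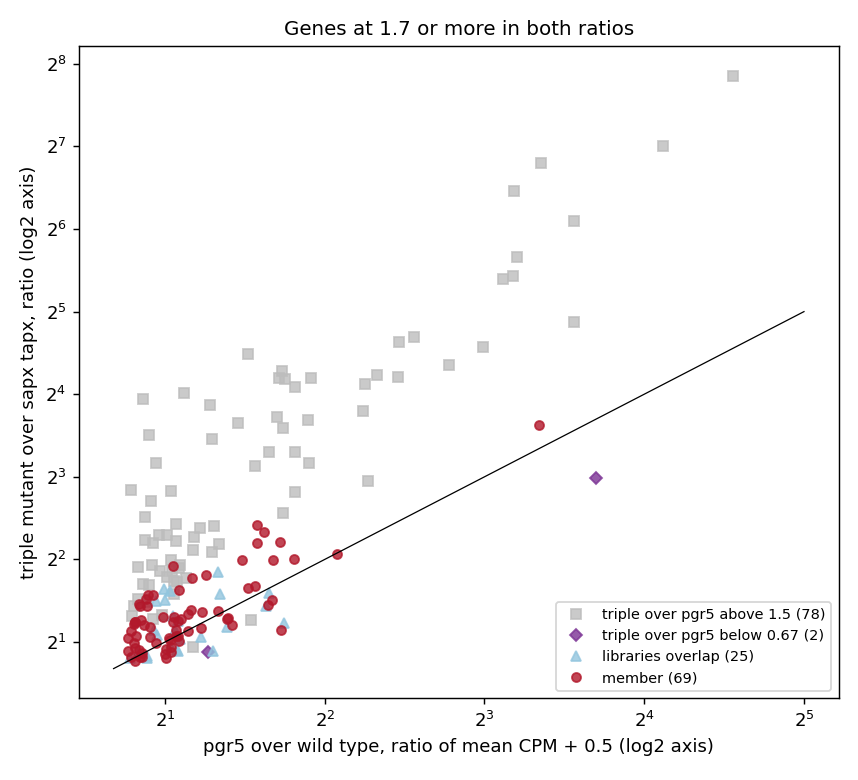
Each point is 1 of the 174 genes at 1.7 or more in both ratios, with the ratio of mean CPM + 0.5 in pgr5 over wild type on the x axis and in sapx tapx pgr5 (triple) over sapx tapx on the y axis, both on log2 axes, and the line marks equal ratios. Of the 69 members (circles) 49 lie above the line, and of the 78 genes with a triple over pgr5 ratio above 1.5 (squares) 76 do.

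The libraries held between 4916603 and 6828070 exon reads. SAPX had 15.7 to 27.7 CPM in the 6 libraries labelled sapx tapx, with or without pgr5, against 205 to 249.7 CPM in the other 6, and TAPX had 17.35 to 26.4 CPM against 161 to 213 CPM, as labelled. PGR5 RNA lay between 203 and 272 CPM in the 6 pgr5-carrying libraries and between 237 and 315 CPM in the other 6, so it does not check the pgr5 label. Wild-type replicate 2 stood apart from the other 2, as described below, and without it 110 genes met the rule, of which 67 are among the 69. Summed mesophyll markers were at 48250 CPM or more in every library, and 3 of 5 root markers had 0 reads. Summed phloem markers other than the member SUC2 lay at 606 to 682 CPM in the pgr5-carrying libraries and 499.6 to 586 CPM in the other 6, with all 9 detected. AHA3 and PP2-A1 made up the largest part of that sum. In pgr5 over wild type NAKR1, SEOR1, CALS7 and APL had ratios of 0.88, 0.94, 0.96 and 0.97, and the rest were above 1. In the triple mutant over sapx tapx APL, CALS7 and FTIP1 had 0.86, 0.91 and 0.97, and the rest were above 1. Summed trichome markers lay at 7.03 to 11.8 CPM in the pgr5-carrying libraries and 12.7 to 19.1 CPM in the other 6, with 2 of 8 below 1 CPM. GL2 averaged 0.43 CPM in pgr5 and 4.88 CPM in wild type, and 0.16 CPM in the triple mutant and 2.85 CPM in sapx tapx. TRY had ratios of 1.32 and 1.03 in these pairs. Of 5 trichome genes tested, edgeR called 2 lower in pgr5 against wild type, where 1.46% of all genes were. It called 3 lower in the triple mutant against sapx tapx, where 3.13% were, and 0 higher in both. The part of these cell types in the members' levels was not tested, and fewer cells of a type and less RNA per cell cannot be told apart in bulk leaves.

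Sequences upstream of the gene start were read as a feature that the rule did not use. The window was the 300 bases before the outermost annotated start of each gene in RefSeq's annotation of TAIR10.1, on the gene's strand, and all 69 members had one. Short motifs were searched on both strands. The letters GATAAG, the I-box found in many light-responsive plant promoters, stood in 15 of 69 windows, which is 21.7%, against 14.6% of the 12912 windows of genes at the level threshold and 14.5% of 28495 windows of all genes. Both glutaredoxin-type genes at the head of the ranking below, AT3G62950 and AT5G18600, hold it, and their windows are shown with GATAAG or its complement in capitals.
AT3G62950 (chr3:23265927-23266226, plus strand): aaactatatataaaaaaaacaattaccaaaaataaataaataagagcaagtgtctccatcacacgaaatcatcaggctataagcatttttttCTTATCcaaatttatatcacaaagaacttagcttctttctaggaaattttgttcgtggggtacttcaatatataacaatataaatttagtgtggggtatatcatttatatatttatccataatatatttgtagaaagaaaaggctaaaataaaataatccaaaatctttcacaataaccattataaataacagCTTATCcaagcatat
AT5G18600 (chr5:6184039-6184338, minus strand): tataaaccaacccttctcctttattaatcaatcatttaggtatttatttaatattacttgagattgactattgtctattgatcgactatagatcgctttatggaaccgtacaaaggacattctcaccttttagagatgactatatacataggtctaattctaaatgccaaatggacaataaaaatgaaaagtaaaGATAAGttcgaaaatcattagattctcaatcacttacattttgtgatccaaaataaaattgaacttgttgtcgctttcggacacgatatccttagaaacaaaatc

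The evening element AAAATATCT, a clock-related motif, stood in 3 member windows, which is 4.35%, against 3.15% of windows at the level threshold and 2.8% of all windows. These 3 belong to EPR1, MYBL2 and FBA5. They are shown with the element or its complement in capitals.
EPR1 (chr1:6308244-6308543, minus strand): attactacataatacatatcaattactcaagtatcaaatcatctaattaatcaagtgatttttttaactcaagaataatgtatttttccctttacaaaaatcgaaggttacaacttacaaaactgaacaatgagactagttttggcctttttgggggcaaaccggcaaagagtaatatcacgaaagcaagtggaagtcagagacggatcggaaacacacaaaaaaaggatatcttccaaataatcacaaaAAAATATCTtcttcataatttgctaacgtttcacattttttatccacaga
MYBL2 (chr1:26796533-26796832, minus strand): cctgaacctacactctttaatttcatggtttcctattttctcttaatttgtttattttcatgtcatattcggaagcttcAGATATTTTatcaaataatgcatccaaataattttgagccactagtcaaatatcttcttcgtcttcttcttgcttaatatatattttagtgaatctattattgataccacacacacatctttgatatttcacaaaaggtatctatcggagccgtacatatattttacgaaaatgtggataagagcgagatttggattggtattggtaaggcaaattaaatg
FBA5 (chr4:13390454-13390753, plus strand): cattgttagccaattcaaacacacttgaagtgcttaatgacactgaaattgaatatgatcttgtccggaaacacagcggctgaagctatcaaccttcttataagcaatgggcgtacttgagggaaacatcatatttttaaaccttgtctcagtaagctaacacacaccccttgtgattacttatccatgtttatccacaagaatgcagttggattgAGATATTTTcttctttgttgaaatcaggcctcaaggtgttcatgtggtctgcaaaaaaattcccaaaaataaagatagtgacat

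FRO6 and FRO7 are neighbours on the minus strand of chromosome 5, with 828 bases between them, and their windows share a run of 29 bases found in no other window of the 28495. That run holds a G-box, CACGTG, whose first base lies 98 bases before the start of FRO6 and 118 before that of FRO7. Their windows are shown with CACGTG and with GATAAG or its complement in capitals.
FRO6 (chr5:20204596-20204895, minus strand): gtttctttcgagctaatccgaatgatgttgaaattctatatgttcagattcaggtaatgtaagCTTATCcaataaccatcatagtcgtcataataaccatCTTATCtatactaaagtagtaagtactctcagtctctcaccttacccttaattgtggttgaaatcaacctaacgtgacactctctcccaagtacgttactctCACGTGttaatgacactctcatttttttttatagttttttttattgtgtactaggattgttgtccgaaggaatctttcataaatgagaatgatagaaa
FRO7 (chr5:20208778-20209077, minus strand): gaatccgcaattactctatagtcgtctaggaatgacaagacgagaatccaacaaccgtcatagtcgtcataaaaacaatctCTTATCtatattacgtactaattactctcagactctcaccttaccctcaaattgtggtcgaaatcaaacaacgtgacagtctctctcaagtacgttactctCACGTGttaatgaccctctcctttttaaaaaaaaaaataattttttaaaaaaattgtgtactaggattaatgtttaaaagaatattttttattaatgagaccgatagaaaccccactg

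Whether the I-box share among members differs from that of all windows was not tested. In percentage points its difference was the widest among the motifs searched. Its 15 windows include those of FRO6 and FRO7, which share a run of bases. The shares of the other motifs are given against those of windows at the level threshold first and of all windows second. The G-box CACGTG stood in 6 member windows, those of SUC2, BMY3, PSY1, AT1G15740, FRO6 and FRO7. That is 8.7% against 8.32% and 7.03%. The core ACGTG, which overlaps it, stood in 26.1% against 25.6% and 25.5%. The heat shock element core GAANNTTC stood in 10.1% against 11% and 11.4%, and TTGACC in 10.1% against 13.4% and 13.8%. CCGAC stood in 14.5% against 15.6% and 13.8%. TGACG stood in 24.6% against 21.9% and 21.3%, and TATAAA in 56.5% against 50.9% and 53%. A match is a run of letters and not a shown binding site.

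Across all 69 genes the ratio of pgr5 to wild type ran from 1.705 for the cytochrome P450 CYP72A13 to 10.12 for AT3G62950, and the ratio of the triple mutant to sapx tapx from 1.705 for AT5G63020 to 12.3, again for AT3G62950. Both ratios were 2 or more in 37 genes and 3 or more in 6. The triple mutant to pgr5 ratio had a median of 1.13 and a range of 0.736 for CSLB03 to 1.48 for AT3G03990. It was between 0.9 and 1.1 in 28 genes, 1.3 or more in 12 and above 1 in 54. The ratio over sapx tapx exceeded the ratio over wild type in 49 of the 69 genes. Equal within the limits of the rule therefore left room for a somewhat higher level in the triple mutant.

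**Figure D2:**
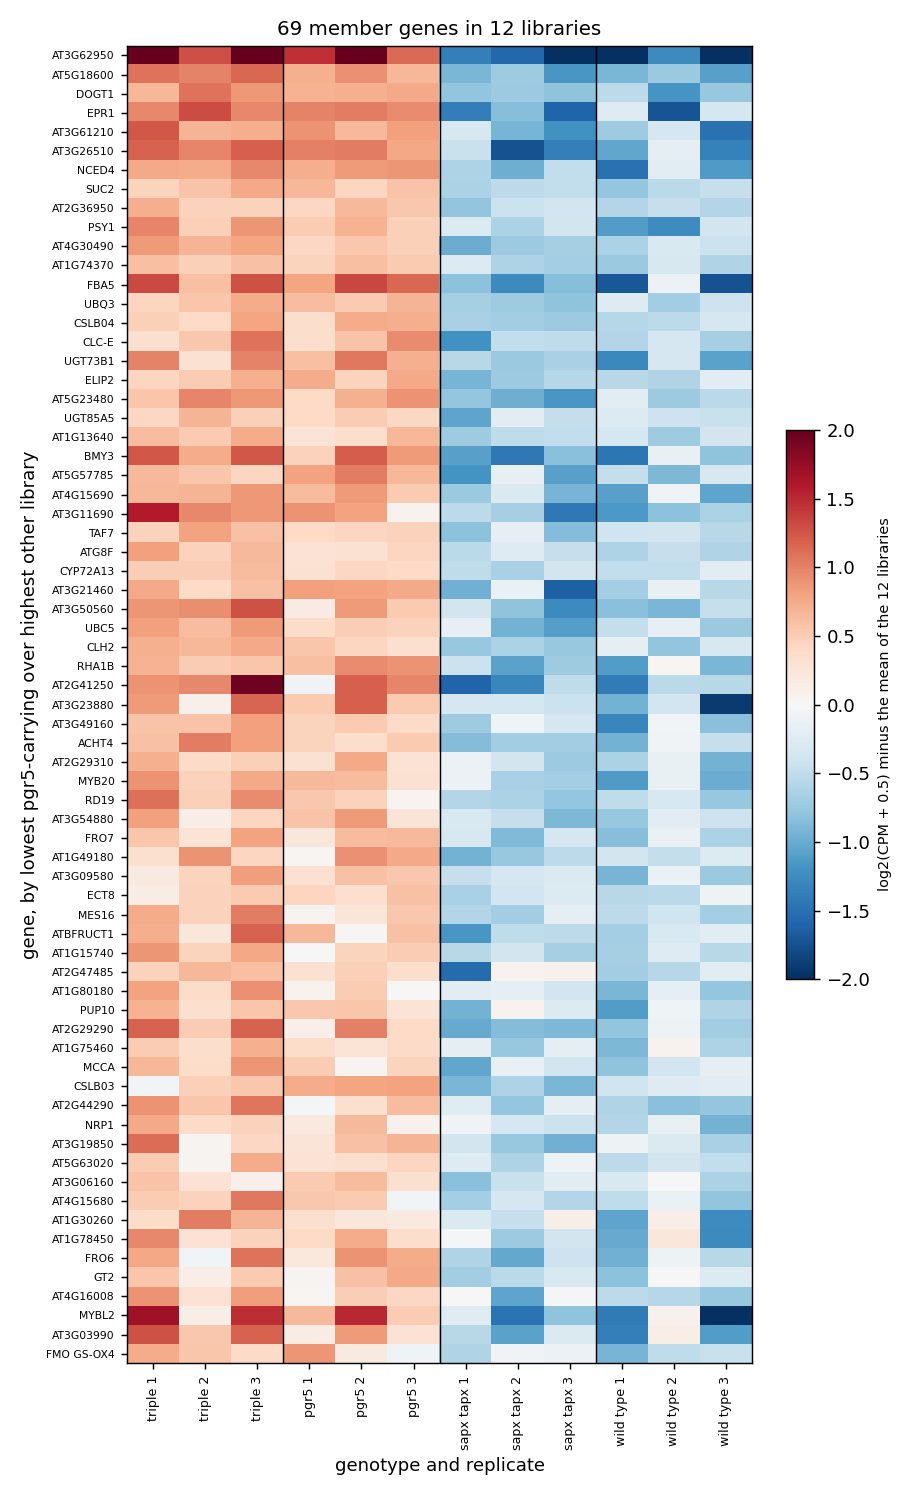
Each row is 1 of the 69 members and each column 1 library (triple, sapx tapx pgr5); colour gives log2(CPM + 0.5) minus the gene's mean over the 12 libraries. The rule makes the 6 pgr5-carrying libraries on the left higher in every row; rows differ in how even the libraries of a genotype are, and in many of them replicate 2 is the highest wild-type library.

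Edge values show how the limits divided the genes. Just inside the fold limit of 1.7 were CYP72A13 at 1.705 and AT1G75460 at 1.706 in pgr5 over wild type, and AT5G63020 at 1.705 in the triple mutant over sapx tapx. Just outside were the nitrilase NIT4 at 1.695 in pgr5 over wild type, and AT2G03310 at 1.692 and AT1G08900 at 1.685 in the triple mutant over sapx tapx. At the upper limit on the triple mutant over pgr5, AT3G03990 at 1.483, AT2G41250 at 1.473 and AT3G11690 at 1.457 were kept. The heat shock protein gene AT3G09440 at 1.533, the Argonaute gene AGO2 at 1.565 and AT1G56220 at 1.581 were left out.

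The redox group holds 6 members, which belong to the thioredoxin superfamily, small proteins that reduce disulphide bonds or act with glutathione. Of these 5, AT3G62950, AT5G18600, AT3G21460, AT4G15680 and AT4G15690, carry reference notes naming glutaredoxin-type activity, and ACHT4 is an atypical thioredoxin of the chloroplast. Their ratios had medians of 2.44 in pgr5 over wild type and 2.77 in the triple mutant over sapx tapx.

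AT3G62950 had the widest separation of all members. It had 5.27, 7.996 and 4.07 CPM in pgr5, against 0, 0.361 and 0 CPM in wild type. It had 9.95, 4.62 and 8.79 CPM in sapx tapx pgr5, against 0.313, 0.203 and 0 CPM in sapx tapx. No library without pgr5 held more than 2 reads of the gene. There were 109 reads over the pgr5 libraries against 2 over wild type, and 149 over the triple mutant against 3 over sapx tapx. On CPM without the added 0.5, the ratios were 51.2 (95% counting interval 13.8 to 428) and 46.0 (15.4 to 226), and these intervals cover counting error only.

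AT5G18600 was higher in level and more even. It had 51.3, 58.8 and 49.5 CPM in pgr5, against 16.2, 18.4 and 14.4 CPM in wild type, a ratio of 3.19. In sapx tapx pgr5 it had 66.7, 62.6 and 69.1 CPM, against 16.3, 18.7 and 13.6 CPM in sapx tapx, a ratio of 3.99. The lowest library with pgr5 was at 49.5 CPM and the highest without it at 18.7 CPM. AT4G15680 and AT4G15690 lie 2028 bases apart on chromosome 4 in a run of similar genes, of which AT4G15660, AT4G15670 and AT4G15700 were not members, with ratios of 1.38, 1.06 and 1.44 in pgr5 over wild type and 1.35, 1.7 and 2.19 in the triple mutant over sapx tapx. ACHT4 averaged 93.4 ± 5.6 CPM in pgr5 and 50.1 ± 14.9 CPM in wild type (SD, n = 3 each), and its triple mutant over sapx tapx ratio was 2.96.

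Another 9 members modify small molecules. DOGT1, UGT73B1 and UGT85A5 are glycosyltransferases that attach sugars, DOGT1 to the fungal toxin deoxynivalenol and to brassinosteroids. CYP72A13 is a cytochrome P450, FMO GS-OX4 oxidises the sulphur of glucosinolates, AT3G61210 is a methyltransferase by its annotation, and AT2G29290, AT2G29310 and AT3G50560 have a Rossmann fold that binds NAD(P).

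DOGT1 had 111, 112 and 116 CPM in pgr5, against 47.2, 29.8 and 40.2 CPM in wild type. In sapx tapx pgr5 it had 109, 145 and 125 CPM, against 39.1, 41.1 and 38.9 CPM in sapx tapx. The lowest pgr5-carrying library was at more than double the highest of the other 6. The neighbouring family member UGT73C6 was not a member, with a triple mutant over pgr5 ratio of 1.86 and libraries that overlapped. AT3G61210 had 19.4, 16.1 and 18.2 CPM in pgr5, against 5.96, 7.95 and 3.27 CPM in wild type. It had 24.5, 16.5 and 17.1 CPM in sapx tapx pgr5, against 7.97, 5.08 and 4.08 CPM in sapx tapx. UGT73B1 had ratios of 3.12 and 2.72, and UGT85A5 of 1.76 and 2.10, each given with pgr5 over wild type first and the triple mutant over sapx tapx after it.

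AT2G29290 and AT2G29310 are 2315 bases apart on chromosome 2 with AT2G29300 between them. That middle gene had ratios of 1.59 and 3.95 and was no member, while AT2G29290 had 2.07 and 3.78 and AT2G29310 had 2.01 and 1.89. The neighbour AT2G29320 reached 1.85 in pgr5 over wild type and 1.44 in the triple mutant over sapx tapx.

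A group of 8 members acts in plastids or on pigments. ELIP2 is an early light-induced protein that binds pigments set free in strong light, NCED4, also called CCD4, cleaves carotenoids, CLH2 is a chlorophyllase, MES16 works in chlorophyll breakdown, and CLC-E is a chloride channel of the thylakoid membrane. The rest are AT3G09580, AT1G75460 and the SOUL heme-binding protein gene AT1G78450.

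NCED4 had 99.9, 108 and 112 CPM in pgr5, against 20.9, 51.3 and 27.1 CPM in wild type. It had 102, 101 and 117 CPM in sapx tapx pgr5, against 38.8, 30.3 and 42.7 CPM in sapx tapx. The 6 pgr5-carrying libraries lay close together, while wild-type replicate 2 stood well above the other 2. CLH2 had ratios of 1.80 in pgr5 over wild type and 2.69 in the triple mutant over sapx tapx, and MES16 of 1.76 and 2.36.

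ELIP2 had the highest level per exon length of the members, with 691, 566 and 700 RPKM (reads scaled to exon length and to library size) in pgr5, against 282, 272 and 359 RPKM in wild type. In sapx tapx pgr5 it had 560, 587 and 676 RPKM, against 219, 249 and 279 RPKM in sapx tapx. All pgr5-carrying libraries were at 560 RPKM or more and all others at 359 RPKM or less. Its close relative ELIP1 was no member. It averaged 424 CPM in pgr5 and 318 CPM in wild type, and 238 CPM in the triple mutant and 209 CPM in sapx tapx, and did not pass the test in either pair (edgeR, adjusted p = 0.143 in pgr5 against wild type and 0.537 in the triple mutant against sapx tapx). With the replicate number as a block within each pair of genotypes, the adjusted p of ELIP1 was 0.00855 in pgr5 against wild type and 0.175 in the triple mutant against sapx tapx.

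ELIP2 was the only member on a list of 15 photoprotection genes, a list chosen with earlier results of these data known. The counts below include ELIP2, which the rule chose for being higher in these contrasts. In pgr5 against wild type 8 of the 15 were called higher and 0 lower, where 2.44% of the 16350 genes tested were called higher, and in the triple mutant against sapx tapx 6 were called higher and 0 lower, against 4.78%. With that block 12 were called higher in pgr5 against wild type, against 6.84% of all genes, and 9 in the triple mutant against sapx tapx, against 8.56%, and 0 lower in both. Without the block the list's median log2 fold changes were 0.32 and 0.20, with medians of 0.00 over all genes. Among the other called genes was SEP2. This stress-enhanced protein of the same family had log2 fold changes of 0.78 ± 0.15 (SE, adjusted p = 0.0155) and 0.74 ± 0.15 (adjusted p = 0.0103), and the zeaxanthin epoxidase ZEP 0.48 ± 0.07 (adjusted p = 0.00441) and 0.32 ± 0.07 (adjusted p = 0.0162).

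In all, 6 members take part in carbon metabolism and transport. SUC2 is the proton-coupled sucrose carrier that loads the phloem, FBA5 is a fructose-bisphosphate aldolase, BMY3 is of the beta-amylase family, ATBFRUCT1 is a cell wall invertase that splits sucrose, AT3G49160 is of the pyruvate kinase family and MCCA is a subunit of the mitochondrial enzyme for leucine breakdown. Their ratios had medians of 2.17 in pgr5 over wild type and 2.48 in the triple mutant over sapx tapx.

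SUC2 had 101, 85.5 and 94.5 RPKM in pgr5, against 37.2, 43.7 and 46.0 RPKM in wild type. In sapx tapx pgr5 it had 87.0, 94.2 and 108 RPKM, against 41.1, 44.4 and 45.1 RPKM in sapx tapx. Libraries of a genotype were even, and SUC2 had one of the smallest within-genotype spreads of the members. It was the only member on the list of 10 phloem genes, and its own calls below follow from the rule. This list too was chosen with earlier results of these data known. In pgr5 against wild type 3 of the 10 were called higher and 0 lower, where 2.44% of all genes were called higher. The 3 were SUC2, the proton pump AHA3 and the phloem protein PP2-A1. The triple mutant against sapx tapx also had 3 and 0, SUC2, PP2-A1 and the sucrose exporter SWEET12, against 4.78% of all genes. PP2-A1 had log2 fold changes of 0.66 ± 0.10 (SE, adjusted p = 0.00639) and 0.46 ± 0.10 (adjusted p = 0.0174), beside 1.19 ± 0.11 and 1.16 ± 0.11 for SUC2. With the replicate block within each pair of genotypes, AHA3 (edgeR adjusted p = 0.0179) and SWEET11 were called in the triple mutant against sapx tapx as well, 5 in all. That block called 8.56% of all genes higher there. The phloem factor APL, at -0.01 ± 0.13 and -0.20 ± 0.12, and the sieve element protein SEOR1, at -0.05 ± 0.18 and 0.22 ± 0.18, did not pass the test in either pair.

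FBA5 had 375, 551 and 483 CPM in pgr5, against 66.95, 200.4 and 64.9 CPM in wild type. In sapx tapx pgr5 it had 543, 329 and 529 CPM, against 123, 90.1 and 121 CPM in sapx tapx. Its ratios were the largest among the carbon genes apart from the triple mutant over sapx tapx ratio of BMY3, at 4.23 and 4.18, and its libraries differed widely within genotypes. BMY3 had 2.98 and 4.57. ATBFRUCT1, AT3G49160 and MCCA had ratios between 1.72 and 2.12 in pgr5 over wild type and between 2.01 and 2.75 in the triple mutant over sapx tapx.

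**Figure D3:**
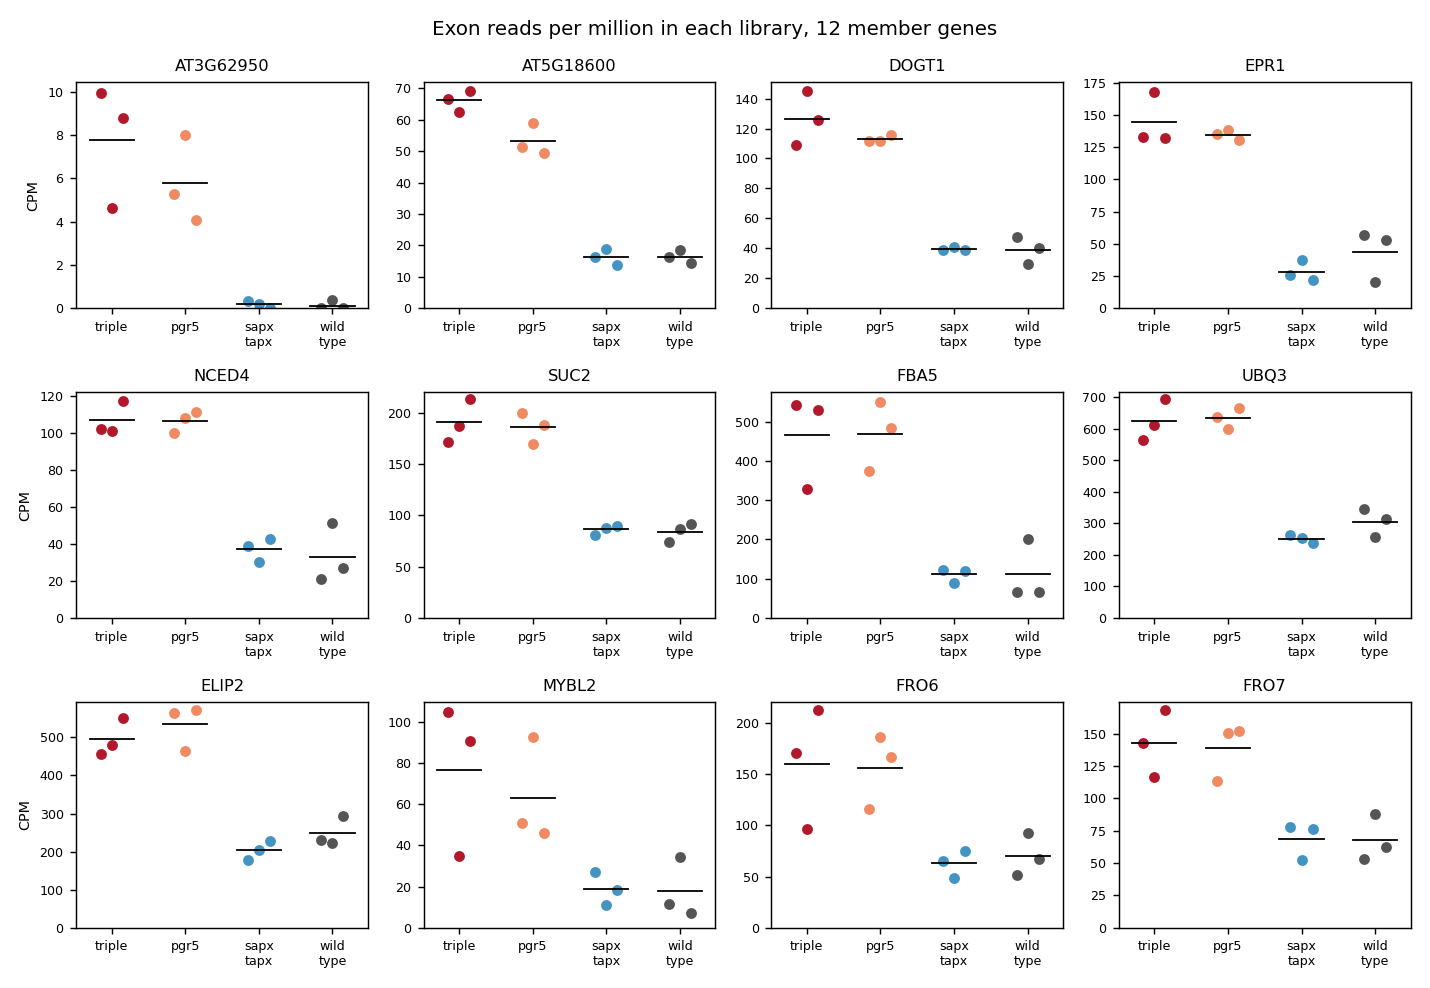
Each panel gives CPM on a linear axis from 0 for 1 of 12 members, with 1 point per library and a bar at the mean of the 3 libraries of a genotype (triple, sapx tapx pgr5). SUC2, UBQ3 and AT5G18600 are even within genotypes, while FBA5, MYBL2 and NCED4 have a wild-type library (replicate 2) well above the other 2.

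On metals there were 3 members. FRO6 and FRO7 are ferric reductases, FRO7 of the chloroplast, and AT2G36950 has a heavy metal-binding domain. FRO6 averaged 156.6 ± 36.6 CPM in pgr5 and 70.6 ± 21.0 CPM in wild type, and 160.0 ± 58.6 CPM in the triple mutant and 63.1 ± 13.1 CPM in sapx tapx (SD, n = 3 each). FRO7 averaged 138.7 ± 21.9 CPM in pgr5 and 67.9 ± 18.0 CPM in wild type, and 142.7 ± 26.1 CPM in the triple mutant and 68.8 ± 14.2 CPM in sapx tapx. The pair share sequence, and 89.3% of FRO6 and 89.2% of FRO7 exon reads were unique in the deposited tables. AT2G36950 had 17.84, 21.3 and 19.7 CPM in pgr5, against 8.69, 9.58 and 8.67 CPM in wild type, and 22.3, 18.6 and 18.4 CPM in sapx tapx pgr5, against 7.50, 9.76 and 10.11 CPM in sapx tapx.

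Among the members, 6 are transcription factors or parts of the transcription machinery. EPR1, also called REVEILLE 7, is a MYB-like factor tied to the circadian clock, MYBL2 is a repressor of flavonoid synthesis, MYB20 is another MYB factor, GT2 is a trihelix factor, TAF7 is a subunit of the general factor TFIID, and AT3G06160 is of the B3 family. EPR1 and MYBL2 had the largest ratios of these 6.

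EPR1 had 135, 138 and 131 CPM in pgr5, against 56.9, 20.1 and 53.2 CPM in wild type. It had 133, 168 and 132 CPM in sapx tapx pgr5, against 25.8, 37.2 and 22.04 CPM in sapx tapx. Levels with pgr5 were nearly the same in 5 of 6 libraries, and wild-type replicate 2 was below the other 2, opposite to FBA5 and NCED4. Of EPR1's exon reads 65.6% were unique, and it stayed a member on unique reads alone. None of the 12 core clock genes on a fixed list was a member. ELF3, at a log2 fold change of 0.75 ± 0.17 (SE, edgeR adjusted p = 0.0289), was the only one called in pgr5 against wild type. There 2.44% of all genes were called higher and 1.46% lower. In the triple mutant against sapx tapx edgeR called 0 clock genes, against 4.78% higher and 3.13% lower of all genes. At an unadjusted p under 0.05 there were 3 clock genes in that pair, beside 3477 of 16350 genes. With the replicate block, the count in the triple mutant against sapx tapx was 1 higher and 2 lower, against 8.56% and 7.27% of all genes.

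MYBL2 had 50.6, 92.3 and 45.9 CPM in pgr5, against 11.8, 34.1 and 7.03 CPM in wild type, and 105, 34.9 and 90.5 CPM in sapx tapx pgr5, against 27.1, 11.2 and 18.1 CPM in sapx tapx. Its ratio was 3.496 in pgr5 over wild type, but the lowest library with pgr5, at 34.9 CPM, was only just above the highest without it, at 34.1 CPM. Of 11 flavonoid genes tested, 0 were called higher and 1 lower in each pair of genotypes, where 1.46% of all genes were called lower in pgr5 against wild type and 3.13% in the triple mutant against sapx tapx. With the replicate block, 5 were called higher and 2 lower in pgr5 against wild type, against 6.84% and 4.67% of all genes. In the triple mutant against sapx tapx 0 were called higher and 3 lower, against 8.56% and 7.27% of all genes. GT2 rests on reads shared with other genes, since 21.5% of its reads were unique, and it was not a member on unique reads.

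Protein turnover is served by 7 members. UBQ3 encodes a chain of ubiquitin units, UBC5 is a ubiquitin-conjugating enzyme, RHA1B and AT1G74370 have RING domains as found in ubiquitin ligases, AT3G23880 is an F-box gene, ATG8F is a ubiquitin-like protein of autophagy and RD19 is a papain-type cysteine protease. Their median ratios were 2.08 and 2.46. UBQ3 had 636, 599 and 664 CPM in pgr5, against 346, 255 and 312 CPM in wild type, and 563, 612 and 692 CPM in sapx tapx pgr5, against 262, 254 and 238 CPM in sapx tapx. It was the most abundant member in CPM, and its lowest library with pgr5, at 563 CPM, was far above its highest without, at 346 CPM. RD19 reached 137.8 ± 29.2 CPM in the triple mutant and 47.7 ± 3.4 CPM in sapx tapx (SD, n = 3 each), and its triple mutant over pgr5 ratio of 1.41 was among the higher ones.

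Signalling and cell wall genes made up 8 members. PSY1 encodes a secreted peptide with a sulphated tyrosine that promotes growth, AT3G03990 has the synonym D14 in the reference, the strigolactone receptor, and CSLB03 and CSLB04 are adjacent cellulose synthase-like genes on chromosome 2. PSY1 had 7.30, 8.45 and 7.16 CPM in pgr5, against 2.04, 1.81 and 3.76 CPM in wild type, and 10.3, 7.15 and 9.67 CPM in sapx tapx pgr5, against 4.07, 3.05 and 3.77 CPM in sapx tapx. Its lowest value with pgr5 was 7.15 CPM and its highest without 4.07 CPM. CSLB03 was the member with the lowest triple mutant over pgr5 ratio, at 34.8 ± 7.5 CPM in the triple mutant and 47.5 ± 1.2 CPM in pgr5, while CSLB04 had 16.3 ± 2.5 CPM in the triple mutant and 16.9 ± 2.5 CPM in pgr5 (SD, n = 3 each). The other signalling genes, 2 protein or lipid kinase genes, a disease resistance gene and an NPH3 family gene, had ratios between 1.75 and 1.98 in pgr5 over wild type.

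The remaining 16 members have other or unknown roles, among them the RNA-binding YTH-domain gene ECT8, the purine permease PUP10, the nodulin-related gene NRP1 and 5 uncharacterised proteins. AT3G26510, with a protein-binding PB1-type domain, stood highest of these in separation, with 38.0, 38.8 and 32.4 CPM in pgr5, against 8.86, 16.3 and 7.03 CPM in wild type, and 43.4, 37.4 and 43.8 CPM in sapx tapx pgr5, against 13.6, 5.29 and 6.94 CPM in sapx tapx. The lowest of its pgr5-carrying libraries was at nearly double its highest other library. NRP1 had 83.0, 113 and 77.1 RPKM in pgr5, against 48.1, 65.4 and 37.2 RPKM in wild type, and 124, 95.2 and 100.4 RPKM in sapx tapx pgr5, against 69.5, 56.6 and 53.9 RPKM in sapx tapx. Libraries with and without pgr5 were close, with 77.1 RPKM the lowest with pgr5 and 69.5 RPKM the highest without.

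The contrast of sapx tapx against wild type asks whether loss of the chloroplast peroxidases alone moved the members. It was no condition of the rule, but its 6 libraries were used by the rule and its ratio is fixed by the 3 ratios the rule limited, so small differences there partly follow from the choice. By edgeR's quasi-likelihood test with Benjamini-Hochberg adjustment over 16350 genes, 0 of the 69 members were called in sapx tapx against wild type, where 0.0367% of all genes (6) were called. At an unadjusted p under 0.05 there were 2 members, both lower in sapx tapx, beside 1227 of the 16350 genes tested. CSLB03 averaged 15.5 ± 1.9 CPM in sapx tapx and 22.4 ± 1.4 CPM in wild type (SD, n = 3 each), a log2 fold change of -0.46 ± 0.16 (SE, edgeR adjusted p = 0.537). AT4G30490, an AFG1-like ATPase gene, averaged 13.0 ± 1.6 CPM in sapx tapx and 16.6 ± 1.9 CPM in wild type, a log2 fold change of -0.28 ± 0.12 (edgeR adjusted p = 0.655). DESeq2 called 0 members, where it called 0.349% of all genes. It had 1 member at an unadjusted p under 0.05, beside 756 of 16350 genes. Limma on log2(RPKM + 0.5) called 0, where it called 0.0245% of all genes. It had 5 members at an unadjusted p under 0.05, beside 1522 of 16350 genes.

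Members were spread around 0 in that comparison. The median log2 fold change of the 69 genes in sapx tapx against wild type was 0.04, with 38 higher and 31 lower, beside 0.00 over all genes tested. The extremes were EPR1 at -0.55 ± 0.32 (SE) and the F-box gene AT3G23880 at 0.76 ± 0.44. The 95% interval lay within a 2-fold change in either direction for 51 members and within 1.7-fold for 35, so for the other 34 a change as large as the limit used in the rule was not excluded by the data. SUC2 had an interval of -0.11 to 0.35, ELIP2 of -0.50 to 0.07 and CYP72A13 of -0.24 to 0.17, whereas AT3G62950, with 5 reads over these 6 libraries, had -2.51 to 3.60. Without wild-type replicate 2, 0 members were called, and EPR1 came nearest with a log2 fold change of -0.91 (edgeR adjusted p = 0.0632). The 3 sapx tapx libraries did not overlap the 3 of wild type in 6 of 69 members, against 13.2% of all genes tested.

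**Figure D4:**
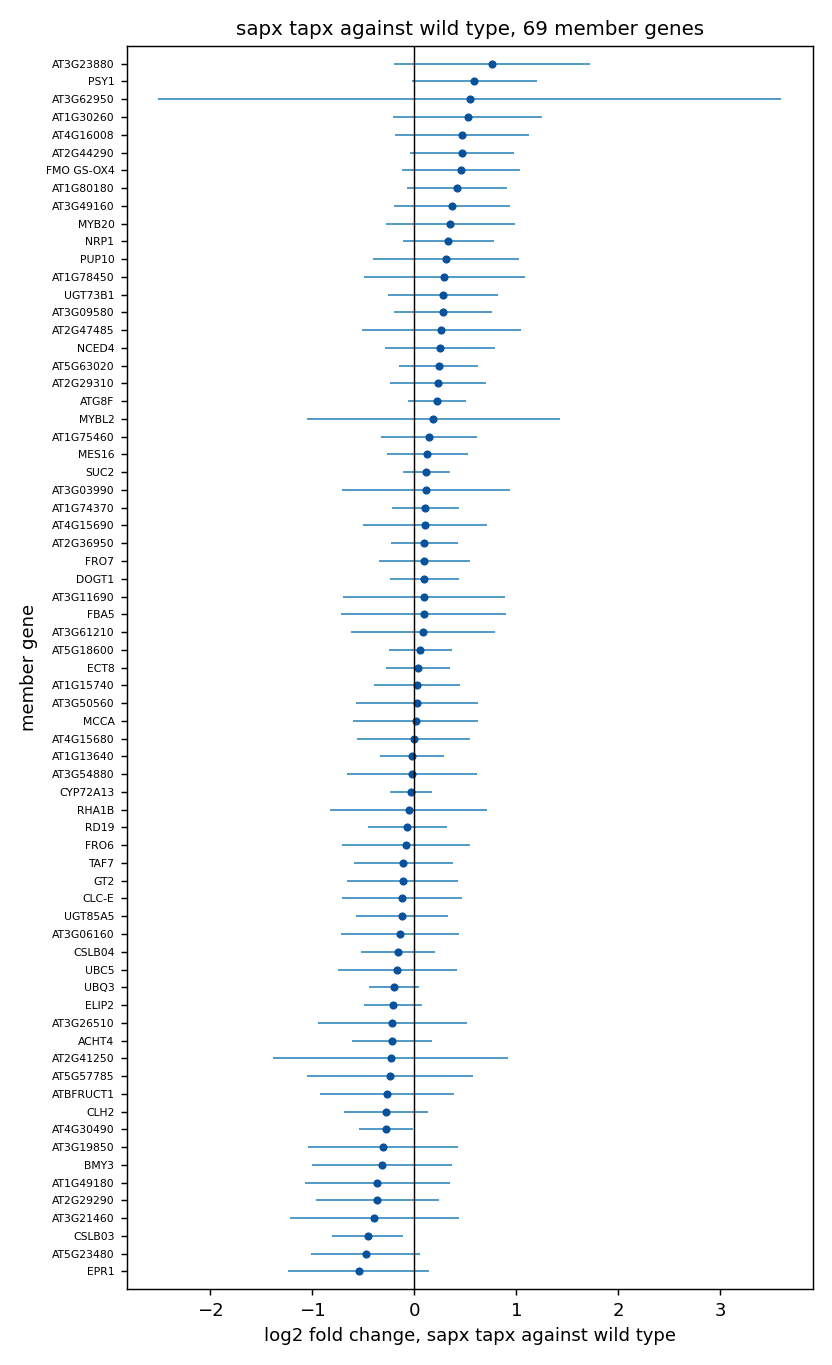
Points give the log2 fold change of each member in sapx tapx against wild type from edgeR, lines its 95% interval, and genes are ordered by value. Points run from -0.55 for EPR1 to 0.76 for AT3G23880, and the interval of AT3G62950 is the widest.

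In the contrasts that chose them, edgeR called 54 of 69 members higher in pgr5 against wild type, where 2.44% of all genes were called higher, and 63 in the triple mutant against sapx tapx, where 4.78% were. With the replicate block within each pair of genotypes it called 66 and 68 members higher, and 1119 and 1399 genes of all, against 399 and 782 without the block. In the triple mutant against pgr5 it called 0 of 69, where 1.54% of all genes were called. At an unadjusted p under 0.05 there were 13 members, beside 2300 of the 16350 genes tested. All members have 6 pgr5-carrying libraries above the other 6, as 3.23% of all genes tested did. These counts follow from the rule.

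Because the ratios chose the genes, the same rule was also applied to replicates 1 and 2, 1 and 3, or 2 and 3 of every genotype, and the genes so chosen were read in the libraries left out. With replicate 1 left out, 84 genes were chosen and had median ratios in that replicate of 1.98 in pgr5 over wild type and 2.498 in the triple mutant over sapx tapx. With replicate 3 left out, 74 genes had 2.05 and 2.498. With replicate 2 left out, 91 genes had 1.62 and 1.76, lower than their 2.07 and 2.30 in the replicates that chose them. Over all genes at the level threshold these medians lay between 0.979 and 1.00. In the same left-out libraries the median ratio of sapx tapx to wild type was 1.11, 0.836 and 0.982 for the genes chosen without replicates 1, 2 and 3, against 0.964, 0.931 and 0.966 over all genes at the level threshold. The medians of the chosen genes thus lay on both sides of 1, the lowest in replicate 2.

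The libraries left out were also read gene by gene. Both pgr5-carrying libraries were above both others in the replicate not used for 92.9% of the chosen genes with replicate 1 left out, 85.7% with replicate 2 and 96.0% with replicate 3, against 19.8%, 18.1% and 21.7% of all genes at the level threshold. Both ratios were again 1.7 or more for 56 of 84, 32 of 91 and 54 of 74 genes, which is 66.7%, 35.2% and 73.0%, against 1.99%, 1.19% and 2.10% of all genes. Between 53 and 58 of the genes chosen in these ways are among the 69 members.

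**Figure D5:**
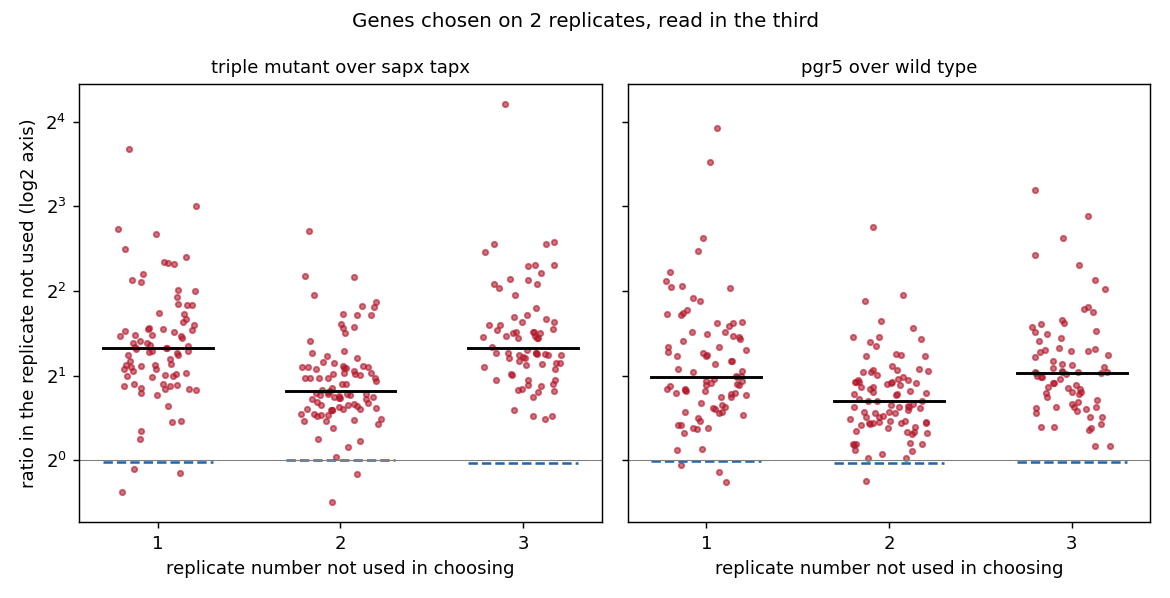
Each point is a gene chosen on 2 replicates of every genotype and read in the third, with its ratio of CPM + 0.5 on a log2 axis for the triple mutant (sapx tapx pgr5) over sapx tapx on the left and pgr5 over wild type on the right. Solid bars are medians of the chosen genes, from 1.62 to 2.498, and dashed bars medians of all genes at 5 CPM or more in pgr5, near 1.

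Replicate 2 stood apart in wild type. Its mean log2(CPM + 0.5) of the 69 members was 3.80, against 3.40 and 3.47 in wild-type replicates 1 and 3, and it was the highest wild-type library for 44 members. All 3 pgr5 libraries, at 4.65, 4.86 and 4.73, and all 3 triple mutant libraries, at 4.96, 4.73 and 5.02, were above it, while sapx tapx had 3.54 in each. Replicate 2 of the triple mutant was the lowest of its genotype for 45 members.

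Genes that answer within minutes to touch, wounding and other stress also set replicate 2 apart in wild type and in the triple mutant. In sapx tapx they varied between libraries, while the members' mean was 3.54 in each. A list of 16 such genes had mean log2(CPM + 0.5) of 5.64, 3.65 and 5.55 in the triple mutant, 4.69, 5.12 and 4.13 in pgr5, 6.06, 4.37 and 5.64 in sapx tapx and 2.64, 5.55 and 2.69 in wild type. After subtracting each genotype's mean, the correlation over 12 libraries between a member and this list had a median of 0.41, from -0.89 for EPR1 to 0.95, beside 0.03 over 12913 genes. It was above 0.7 for 20 of the 69 members and below -0.7 for 2, EPR1 and DOGT1. Of the 12913 genes, 1383 were above 0.7 and 774 below -0.7. Libraries of a genotype varied more in members than in all genes at the level threshold, with a median within-genotype SD of 0.305 against 0.185 log2 units. These sets were not matched for level, so the part of counting noise in this difference was not tested. All 16 were detected, and their summed levels were 462 to 1946 CPM in the triple mutant, 654 to 1242 CPM in pgr5, 753 to 2128 CPM in sapx tapx and 293 to 1821 CPM in wild type. The part of the state these stress genes mark in the members' levels was not tested.

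Reads across exon junctions, which come from spliced RNA, are part of the exon reads that chose the genes, so their ratios largely follow from the choice. They were at least 100 over the 12 libraries for 40 members, with median ratios of 1.98 in pgr5 over wild type and 2.30 in the triple mutant over sapx tapx, beside 2.07 and 2.37 for all exon reads of the same genes. The 6 pgr5-carrying libraries did not overlap the other 6 in 34 of the 40, against 2.59% of the 11910 genes with as many junction reads.

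Intron reads, which are not exon reads, reached 100 for 16 members and differed more from the exon reads of the same genes. Their median ratio was 2.02 in pgr5 over wild type, beside 2.09 in exon reads, and 1.78 in the triple mutant over sapx tapx, beside 2.37. The lowest triple mutant over sapx tapx ratio was 0.976, and both ratios were above 1 in the other 15. Libraries with and without pgr5 did not overlap in 2 of the 16, against 1.53% of 1896 genes.

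Members had fewer exons than other genes. The median was 3 exons, against 7 over the 12913 genes at the level threshold, and 19 members, 27.5%, had 1 exon, against 9.41%. Their median exon length was 1426 bases against 1660. They were spread over all 5 chromosomes, with 20, 10, 15, 14 and 10 genes on chromosomes 1 to 5. The member nearest to PGR5 on chromosome 2 was NRP1, 1041.8 kb away, and the other 9 on that chromosome were more than 10 Mb away. Within 20000 bases of each other lay 4 pairs, named above.

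Among 12844 genes that were no members, the 5 whose log2 levels over the 12 libraries were most like the members' mean had correlations of 0.961 to 0.970. They were AT1G06650, annotated as an oxygenase, AT1G66130, AT5G04810, AT2G43630 and AT1G09010, a glycoside hydrolase gene. All 5 missed the fold limit, with ratios of 1.38 to 1.53 in pgr5 over wild type and 1.42 to 1.81 in the triple mutant over sapx tapx. They share all 12 libraries with the members, and likeness of level says nothing of shared function.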

How the data were processed

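The authors deposited 1 table per library holding whole-number counts of reads (exon, unique exon, exon-exon, intron and gene) and RPKM, per the file headers. The submitters' processing notes name TAIR10 as the build. No source used here gives the aligner or the counting tool. The kit does not mark the strand, so antisense overlaps cannot be told apart.

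CPM was computed from total exon reads. edgeR 4.0.16 (R 4.3.3) fitted all 12 libraries with 1 mean per genotype, TMM scaling and filterByExpr, leaving 16350 genes, and contrasts used the quasi-likelihood test at an adjusted p of 0.05. Same-numbered libraries deviated together within 2 pairs of genotypes. Correlations were 0.372 to 0.612 between the triple mutant and sapx tapx and 0.188 to 0.44 between pgr5 and wild type. They were -0.53 to -0.0183 between sapx tapx and wild type, and -0.663 to -0.196 between the triple mutant and wild type. Over all pairs of genotypes, a library was most like the same-numbered library of another genotype in 13 of 36 checks. Whether the numbers pair libraries is thus not settled by the data. After seeing the data, a fit was added with the replicate number as a block. The block was set within the triple mutant and sapx tapx, and within pgr5 and wild type. DESeq2 1.42.0 and limma 3.58.1 on log2(RPKM + 0.5) were alternatives. Tested on simulated data for sapx tapx against wild type over 16350 genes, the fit recovered 64% of 2-fold and 96% of 4-fold changes. It made 173 calls there, of which 13 were false. The members and lists were chosen with earlier results of these data known. Values in every library are given for the 10 members with the widest separation, the 5 highest in pgr5 by RPKM, and list members; MYBL2 was added after its values were seen. All 69 members matched RefSeq's annotation of TAIR10.1, whose genes overlap all 27997 nuclear genes compared.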

Additional observations from a re-analysis of the deposited data

How the results depend on the processing

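The number of genes meeting the rule was 69, and 124 with a fold limit of 1.5 and 37 with a limit of 2. Leaving out 1 library at a time gave 59 to 110 genes, the highest without wild-type replicate 2, and 34 of the 69 were kept under every omission. Across the other settings (unique reads, gene reads, scaling, pseudocount, level and range limits) it lay between 51 and 94, and 59 members were kept under all 4 alternatives of reads and scaling. TMM scaling and DESeq2 size factors each left out FMO GS-OX4, AT2G41250, AT2G44290, AT3G03990 and AT3G11690. In sapx tapx against wild type 0 members were called under all 19 alternatives, where the smallest adjusted p ran from 0.0632 to 0.862 (edgeR, DESeq2 or limma), and the members' median log2 fold change lay between -0.05 and 0.13. Without wild-type replicate 2 the log2 fold change of EPR1 was -0.91, and that of AT3G23880 was 1.22. With the replicate number as a block over all 12 libraries, 0 members were called there (edgeR, median 0.04). The block within each pair of genotypes was chosen after seeing the data. With it 1119 genes were called higher in pgr5 against wild type, against 399 without it. In the triple mutant against sapx tapx 1399 were, against 782. All 54 and 63 members called without it were kept. List calls that changed are given above for the photoprotection, phloem, clock and flavonoid lists only. Others changed too. Of 16 rapid stress genes, 0 were called in either pair without this block. With it, 4 were called higher in pgr5 against wild type, and 1 higher and 3 lower in the triple mutant against sapx tapx. Of 5 mesophyll markers, 2 were called higher in each pair with it and 0 without. With the block over all 12 libraries the counts were 547 and 882 genes, and 53 and 61 members. Depth limits genes near 5 CPM, such as AT3G62950, most.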
